A study of Homo sapiens with 26 samples.

Results

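Ribosomes translating on the endoplasmic reticulum (ER) were compared directly with ribosomes labelled anywhere in the cytosol. In LOCL-TL, a form of proximity-specific ribosome profiling, a biotin ligase that works only under blue light (LOV-BirA) marks nearby ribosomes through an Avi tag on the large-subunit protein RPL29. The ribosomes are pulled down on streptavidin and their footprints sequenced beside those of the total input from the same lysate. The quantity followed here is the log2 ratio of pulldown to total input with ER LOV-BirA minus the same ratio with cytosolic LOV-BirA, called the ER minus cytosol difference below. A ribosome has to be biotinylated to enter either pulldown, so whatever favours any biotinylated ribosome enters both ratios and is subtracted. Genes were included by 1 rule on the total inputs alone: an entry that names a single gene and holds at least 64 estimated counts in the coding sequence in all 4 total inputs. This left 6809 of 57770 single-gene entries, out of 58849 entries in all.

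All lines were HEK293T, a human embryonic kidney line, with the Avi tag added to the endogenous RPL29 gene in both groups. Tagged lines were isolated as single clones, and whether both groups come from the same clone is not given in the sources used here. The ER group expressed LOV-BirA joined to Sec61β, a tail-anchored subunit of the ER translocon, from the SFFV promoter, and the cytosol group expressed free LOV-BirA from the EF1α promoter. Both constructs were delivered by lentivirus and the cells sorted as polyclonal lines, so bait and promoter differ together. Cycloheximide (CHX) stopped elongation before biotin and blue light were given, in all samples. Each group has 2 lysates, each with 1 total input and 1 pulldown library, which makes 8 libraries of the 26 in the series.

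Secretory and membrane proteins usually reach the ER while they are being made. A hydrophobic signal sequence or transmembrane segment is bound by the signal recognition particle (SRP) as it leaves the ribosome, and the ribosome is then docked on the Sec61 channel through the SRP receptor. Tail-anchored proteins carry their only transmembrane segment so close to the C terminus that translation ends before it emerges, and they are inserted afterwards by the GET pathway or the ER membrane complex. Which ribosomes sit at the ER is therefore known to depend on where in the protein the first hydrophobic stretch lies.

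The stretches that sort the genes can be seen in the coding sequence. The following runs were read from GENCODE 44 coding sequences on GRCh38, 5′ to 3′ on the coding strand. Capitals mark the codons of the most hydrophobic window of 10 residues near the N terminus (HSPA5 and the first LMAN1 run) or of the most hydrophobic 19 residues in the first transmembrane-like segment (all others), and up to 5 codons on each side are in lower case.
HSPA5, signal sequence (chr9:125241076-125241126, minus strand): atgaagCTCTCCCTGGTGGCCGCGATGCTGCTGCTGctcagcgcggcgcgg
LMAN1, signal sequence (chr18:59359155-59359214, minus strand): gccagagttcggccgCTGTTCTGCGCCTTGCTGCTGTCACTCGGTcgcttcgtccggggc
LMAN1, tail segment (chr18:59331420-59331506, minus strand): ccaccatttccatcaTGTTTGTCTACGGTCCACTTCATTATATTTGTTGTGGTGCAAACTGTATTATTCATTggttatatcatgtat
SEC61A1, first segment (chr3:128055531-128055708, plus strand, spliced): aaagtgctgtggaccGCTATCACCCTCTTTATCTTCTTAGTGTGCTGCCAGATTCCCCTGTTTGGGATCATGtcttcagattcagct
OST4, only segment (chr2:27071373-27071459, minus strand): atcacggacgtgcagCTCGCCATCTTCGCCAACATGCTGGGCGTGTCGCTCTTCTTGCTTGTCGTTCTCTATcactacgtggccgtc
SEC61B, tail segment (chr9:99227993-99230415, plus strand, spliced): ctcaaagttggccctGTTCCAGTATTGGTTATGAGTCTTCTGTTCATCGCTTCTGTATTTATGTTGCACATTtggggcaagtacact
VAMP7, tail segment (chrX:155939755-155941930, plus strand, spliced): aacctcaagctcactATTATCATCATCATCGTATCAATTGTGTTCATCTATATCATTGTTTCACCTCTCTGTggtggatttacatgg
The marked codons of HSPA5 are 3 to 12 of 654. In LMAN1 they are codons 16 to 25 of 510 and, for the tail segment, codons 475 to 493, with 17 codons behind it. Behind the marked codons SEC61A1 has 422 more, OST4 has 12, SEC61B has 7 and VAMP7 has 11. These genes were chosen because they differ in the place of the stretch and, as given beside each result, in their footprints.

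Of the 6809 genes, 1927 (28.3%) were higher at the ER and 1480 (21.7%) were lower at an adjusted p below 0.05. Calls were 56.6% higher and 43.4% lower. The scale was set by TMM, which places the typical gene near 0, and the median difference of all genes was -0.03. With library totals as the scale the median of all genes was -0.66 and calls numbered 1337 higher (23.8% of calls) and 4290 lower. Lower calls numbered 736 without ER replicate 1 and 909 without ER replicate 2. Differences below are relative to the typical gene. Large differences were one-sided: 1360 genes were called with a difference above 1 and 89 with a difference below -1. Of the 1360, 1063 (78.2%) encode a non-mitochondrial protein with at least 1 stretch of 19 residues at a mean Kyte-Doolittle hydropathy of 1.6 or more, against 1779 such genes among all 6809. Those called below -1 encode long proteins, with a median of 1648 residues against 476 for all genes tested.

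Enrichment above 1 in both lysates was found with ER LOV-BirA only. In both ER lysates 1294 genes were enriched above 1 on the log2 scale, and no gene was in both cytosolic lysates. Depletion below -1 was found for 82 genes in both cytosolic lysates, and 58 of these were called higher. In both ER lysates 50 genes were below -1, and 13 of these were called higher. Pearson's r between the 2 ER lysates was 0.980 over all genes (Spearman's rho 0.919), and between the 2 cytosolic lysates it was 0.548 (rho 0.304) once the mitochondrial genome was left out, where most genes lie near 0 in both. These correlations are across genes, each over the same pair of lysates, and describe the lysates only.

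**Figure D1:**
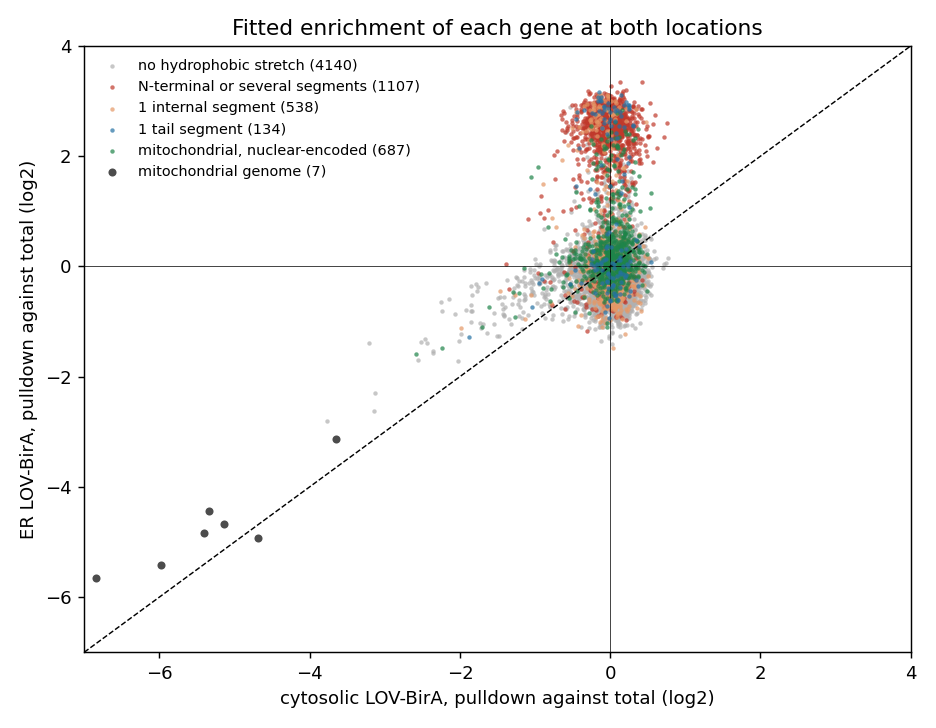
Fitted log2 enrichment of pulldown against total input for each of the genes tested, with cytosolic LOV-BirA on the horizontal and ER LOV-BirA on the vertical axis. Colours give the place of the hydrophobic stretch, the dashed line marks equal enrichment, and the numbers of genes stand in the legend. Genes with N-terminal or several segments form a cloud near 2.5 on the ER axis and near 0 on the cytosolic one, and the 7 genes of the mitochondrial genome lie low on both axes.

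The mitochondrial genome shows what the subtraction does. Its proteins are made inside mitochondria by mitochondrial ribosomes, which have no RPL29, and 7 of its genes met the rule. Their median enrichment was -5.12 and -4.33 in the ER lysates and -5.67 and -4.54 in the cytosolic ones, so they were lost from every pulldown. MT-CYB, a subunit of respiratory complex III, had 5038 and 1103 counts in the ER total inputs and 166 and 67.0 in the ER pulldowns, and 7011 and 914 in the cytosolic total inputs against 108 and 97.1 in the pulldowns. The ER minus cytosol difference of these 7 genes had a median of 0.57, which was -0.06 with library totals, and none of them was called. Without cytosol replicate 1 the median was -0.35, and without cytosol replicate 2 it was 1.12, so the sign of the remainder depends on which cytosolic lysate is kept. In all, 26 genes were depleted below -1 in all 4 lysates, these 7 included, and 13 of them were called higher. Among them are SRP68, TARS1 and ATP6V1G1, described with their groups below.

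The place of the hydrophobic stretch sorted the genes. The 298 genes whose only segment starts within the first 50 residues had a median difference of 2.47, with 259 higher and 10 lower. In this class the median enrichment was 2.58 and 2.39 in the ER lysates and 0.06 and -0.09 in the cytosolic lysates. Genes with 2 to 4 segments (577) had a median of 2.28, with 453 higher and 39 lower, and genes with 5 or more (232) one of 2.47, with 218 higher and 4 lower. The 4140 genes with no stretch of either kind had a median of -0.20, with 462 higher and 1195 lower. Read against 28.3% of all genes, 86.9% of the N-terminal class and 94.0% of the class with 5 or more segments were called higher, and 11.2% of the genes without a stretch. The sorting depended on the threshold. At a mean hydropathy of 2.0, genes with 1 internal segment had a median of 2.47, with 240 of 289 higher. Those with 1 tail segment had a median of 1.98, with 67.9% higher, beside 2.52 in the N-terminal class.

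Genes whose only segment lies further in, or at the very end, fell into separate groups by whether the protein also opens with a short hydrophobic core, defined as 10 residues at a mean hydropathy of 2.0 or more starting at residues 2 to 30. HSPA5 is among these, since its longer window lies inside the protein. That split was chosen after the values of the classes were seen. Of the 134 genes with 1 tail segment, at most 40 residues from the C terminus, the 46 with a core had a median of 2.69 and 44 of them were called higher. The 88 without a core had a median of 0.02, and -0.60 with library totals. Of them 22 were higher (25%, near the 28.3% of all genes) and 19 lower. Internal segments were split likewise, with 58 of 68 higher and a median of 2.76 with a core, and 98 of 470 higher (20.9%) and a median of -0.18 without one. A core with no 19-residue segment (195 non-mitochondrial genes) had a median of 0.60, which was -0.03 with library totals, with 51.8% called higher and 30 genes lower, and the 76 nuclear-encoded mitochondrial genes with a core had a median of 0.91. LMAN1, the lectin that carries glycoproteins out of the ER, has both a core and a tail segment. Its enrichment was 3.04 and 2.68 in the ER lysates and -0.05 and -0.02 in the cytosolic ones, a difference of 2.90 ± 0.14 (SE; adjusted p = 1.24e-09). VAMP7, an endosomal SNARE whose tail segment is the most hydrophobic of the runs shown, gave 0.36 and 0.19 against -0.05 and -0.43, a difference of 0.51 ± 0.17 (adjusted p = 0.020) that was -0.11 with library totals. VAMP7 was not called without ER replicate 1 (0.43) or without cytosol replicate 2 (0.34). Both genes were higher in each ER lysate than in either cytosolic lysate, but on very different scales.

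**Figure D2:**
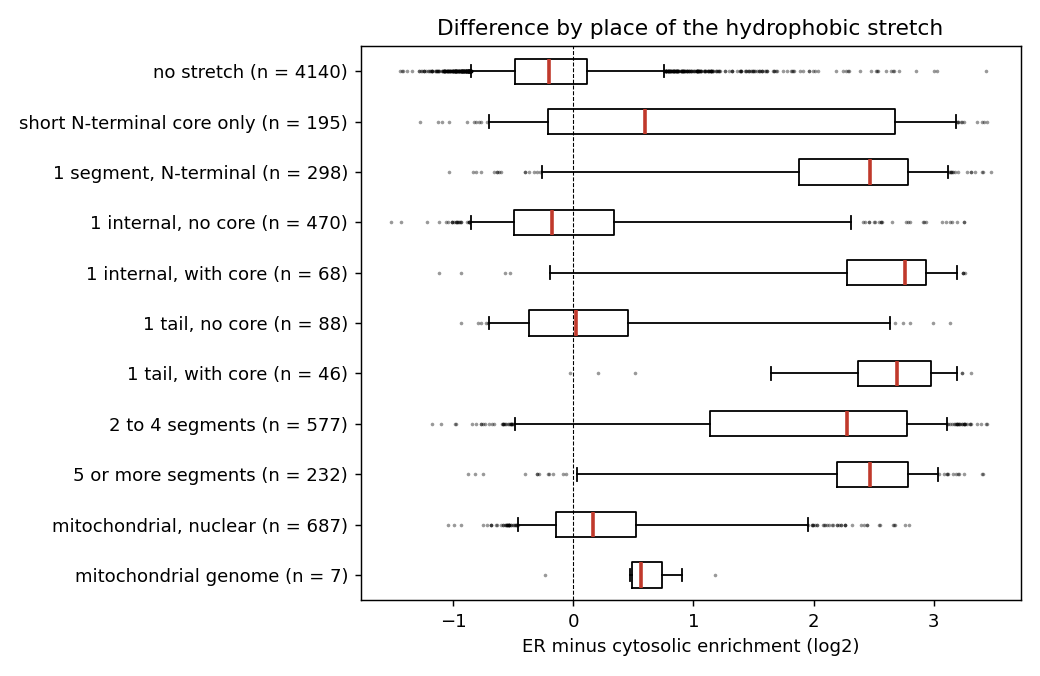
ER minus cytosol difference (log2) by the place of the hydrophobic stretch in the reference protein, with the number of genes for each class. Boxes span the quartiles, red lines are medians and whiskers reach the 5th and 95th percentiles. Tail and internal classes with a core near the N terminus have medians of 2.69 and 2.76. The class of 2 to 4 segments is not split by core and has a median of 2.28. A core with no segment has a median of 0.60, and a tail or internal segment without a core has a median near 0.

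In the N-terminal class, and in the medians with 2 to 4 segments, more residues still to be made after the first segment has left the ribosome went with a larger difference. It was counted as the residues behind the first segment minus 40, the length taken for the exit tunnel. In the N-terminal class the median was 0.93 for the 9 genes with 0 or fewer such residues, 2.1 for 24 genes with up to 100, 2.44 for 97 genes with more than 100 and up to 300, and 2.63 for 168 genes with more than 300. With 2 to 4 segments the medians were 1.54 (6 genes), 1.92 (71), 2.35 (181) and 2.46 (319). In the N-terminal class the quartiles of the lowest bin (0.63 to 1.36) lay below those of the next (1.9 to 2.31), and the other neighbouring bins overlapped. Other classes did not show this order. With 1 internal segment the medians were 0.18, 0.08 and -0.26 from up to 100 residues upwards. With 5 or more segments they were 2.45 (41) and 2.47 (191) for up to 300 residues and more. With 2 to 4 segments the share called higher was 100% in the lowest bin and 66.5% in the highest. OST4, the smallest subunit of the oligosaccharyltransferase, has 37 residues, fewer than the 40 taken for the tunnel. It was below 0 in all 4 lysates, at -0.14 and -0.07 at the ER and -0.49 and -0.74 in the cytosol, with a difference of 0.51 ± 0.13 (adjusted p = 0.00592) that was -0.11 with library totals and was not called without ER replicate 2 (0.47). The translocon subunit SEC61G has 68 residues and gave 0.48 and 0.70 against -0.57 and -0.11 (difference 0.93 ± 0.16, adjusted p = 0.000156), and was not called with library totals (0.31).

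Within the translocation machinery nearly every membrane subunit was higher at the ER. All 21 tested genes of the translocon and insertion list were called, with a median of 2.38. SEC61A1, the channel itself, had enrichments of 2.97 and 2.77 in the ER lysates and 0.15 and -0.43 in the cytosolic lysates (difference 3.0 ± 0.17, adjusted p = 2.01e-09). SEC63, which recruits lumenal chaperones to the channel, was the highest of the list at 3.08. The oligosaccharyltransferase and signal peptidase list was higher in 16 of 16 genes (median 2.47), from OST4 and TMEM258 (1.11 ± 0.19) up to RPN1 (3.04), RPN2 (3.08) and STT3A (3.09), the catalytic subunit. Between these lie DAD1 (1.85), OSTC (2.02), TUSC3 (2.73), DDOST (2.8), MAGT1 (2.81) and STT3B (2.94) of the transferase and SPCS2 (1.73), SPCS1 (2.15), SEC11A (2.26), SEC11C (2.39) and SPCS3 (2.56) of the peptidase. The 2 lowest, of 37 and 79 residues, are the shortest proteins of the list.

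The list of cytosolic targeting factors holds SRP and SRP receptor subunits, GET pathway and BAG6 complex members and soluble subunits of the ER membrane complex. Of 14 tested 5 were higher (35.7%, against 28.3% of all genes) and 1 lower, with a median of 0.33 that was -0.29 with library totals. SRPRA, the subunit of the SRP receptor that binds SRP, has neither a 19-residue segment nor a core in its reference protein. It nevertheless gave 2.42 and 2.27 in the ER lysates against 0.10 and 0.04 in the cytosolic ones, a difference of 2.27 ± 0.13 (adjusted p = 1.83e-09). SRP68, a protein of the particle, was depleted in every pulldown, at -1.57 and -1.05 with ER LOV-BirA and -2.23 and -2.78 with cytosolic LOV-BirA. Its difference of 1.16 ± 0.27 (adjusted p = 0.00245) is a smaller depletion at the ER, not an enrichment. It was not called with library totals (0.54), and with counts over whole exons it was -0.38. BAG6, a chaperone that hands tail-anchored proteins on, was lower (-0.48 ± 0.12, adjusted p = 0.00404), but was not called with counts over whole exons (-0.15).

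The ER-resident folding machinery was higher throughout. All 23 lumenal chaperones and folding enzymes were called (median 2.79). HSPA5 (BiP), the main HSP70 of the ER lumen, gave 3.25 and 2.97 in the ER lysates and 0.16 and -0.24 in the cytosolic ones, a difference of 3.14 ± 0.15 (adjusted p = 1.24e-09). PRKCSH, a subunit of glucosidase II, reached 3.16, and the lowest were the oxidoreductase PDIA3 (1.49 ± 0.20) and ERP29 (1.91). In PDIA3 the cytosolic lysates differed more than the ER ones, at 0.75 and -0.04. Of 22 genes for ER-associated degradation 18 were higher and none lower (median 2.40), up to SEL1L (3.10), the adaptor of the HRD1 ligase, and EDEM3 (2.97). UBE2J1 and RNF185, both of which have 1 tail segment, were not called, at -0.19 ± 0.14 and -0.11 ± 0.22. ER-shaping proteins were higher in 15 of 15 genes (median 2.35), from LRRC59 (0.83 ± 0.12, not called with library totals at 0.21) and ATL3 (1.15) to RTN3 (2.89) and CKAP4 (2.92).

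Transcription factors that wait in the ER membrane, and the proteases that release them, were higher in 10 of 10 tested genes, with a median of 1.83. MBTPS1, the site-1 protease, gave 2.82 and 2.5 against -0.51 and -0.78 (difference 3.31 ± 0.19, adjusted p = 2.44e-09), and MBTPS2, the site-2 protease, 2.51 ± 0.16. The sterol-regulated factors SREBF1 (1.30 ± 0.19) and SREBF2 (1.65 ± 0.14), whose first segments begin at residues 488 and 472, were lower than their retention factor INSIG1 (1.88 ± 0.15) and than the stress sensor kinase ERN1 (2.90 ± 0.20). NFE2L1, a factor that is inserted by its N terminus, was at 3.03 ± 0.21, and CREB3 at 1.78 and CREB3L2 at 0.68, with single internal segments, the latter not called without ER replicate 1 (0.62) or with library totals (0.06). XBP1, whose mRNA is spliced at the ER by ERN1, has no segment in the reference protein used here, the spliced form. It gave 1.69 and 1.44 in the ER lysates and -0.01 and 0.37 in the cytosolic ones, a difference of 1.39 ± 0.15 (adjusted p = 1.58e-06). These differences between genes were not tested against each other.

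**Figure D3:**
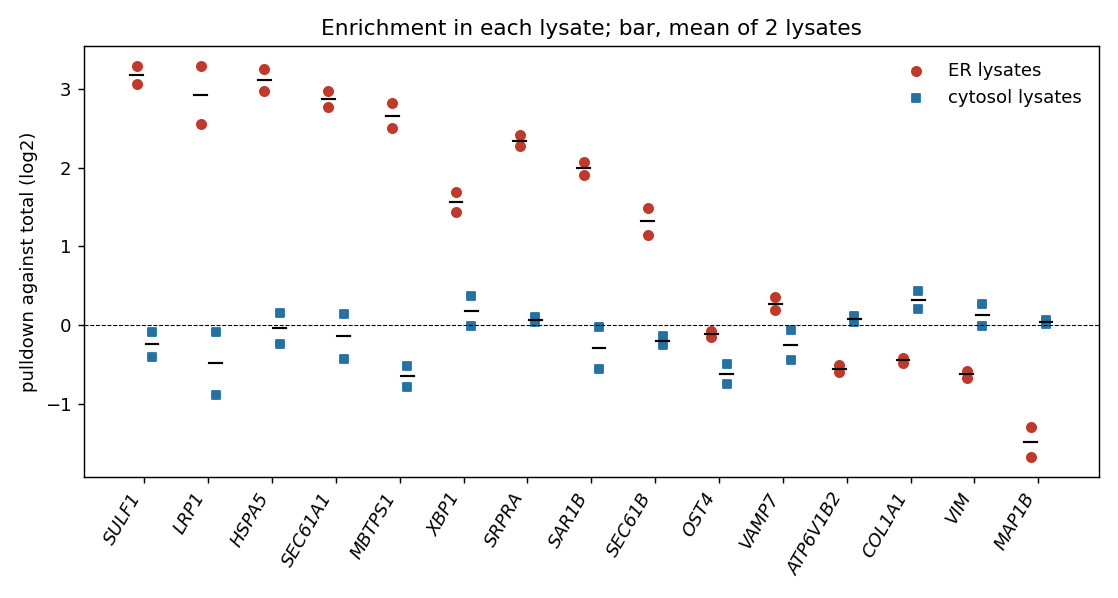
Log2 enrichment of pulldown against total input in each of the 2 ER lysates (circles) and 2 cytosolic lysates (squares) for 15 genes, with the mean of each pair as a bar. ER lysates lie above cytosolic lysates by about 3 for SULF1 and HSPA5, by about 0.5 for OST4 and VAMP7, and below them for ATP6V1B2, COL1A1, VIM and MAP1B.

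The cargo of the secretory pathway gave the largest values. Adhesion and matrix genes were higher in 40 of 41 tested (median 3.06), receptor kinases, phosphatases and guidance receptors in 37 of 37 (2.96), GPCR and Wnt or Hedgehog receptors in 11 of 11 (2.84) and secreted growth factors, inhibitors and proteases in 26 of 27 (2.86). SULF1, an extracellular sulfatase, had the largest difference of all genes, from 3.29 and 3.06 in the ER lysates and -0.09 and -0.40 in the cytosolic lysates (3.47 ± 0.21, adjusted p = 3.99e-09). Among the 10 largest rises 4 are collagen IV chains, COL4A4 (3.45 ± 0.31), COL4A1 (3.42), COL4A5 (3.41) and COL4A2 (3.41), which form the network of basement membranes. FRAS1 (3.45) and LAMA4 (3.44), also basement membrane proteins, the endocytic receptor LRP1 (3.43 ± 0.25), MFSD14B (3.41) and the zinc transporter SLC30A5 (3.41 ± 0.21) complete them. In LRP1 both pairs of lysates spread, 3.29 and 2.55 at the ER and -0.08 and -0.89 in the cytosol. FGF2, which leaves the cell without a signal sequence, was the secreted gene that was not called, with -0.42 and 0.05 against -0.48 and -0.40 (0.22 ± 0.25, adjusted p = 0.483).

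One matrix gene ran the other way. COL1A1, the α1 chain of collagen I, has its only segment at the N terminus, as a secreted protein. It was at -0.48 and -0.41 in the ER lysates and at 0.44 and 0.20 in the cytosolic lysates, a difference of -0.77 ± 0.16 (adjusted p = 0.00101). The groups do not overlap, and the smallest total input held 334 counts of COL1A1.

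Organelles that are supplied through the ER followed their membrane topology. Lysosomal lumenal enzymes were higher in 22 of 22 genes (median 2.57), from PPT1 (1.42) to PSAP (3.05), and lysosomal membrane proteins in 14 of 15 (2.57), PIP4P1 being the exception at 0.29 ± 0.17. Golgi glycosyltransferases were higher in 25 of 25 (2.67), p24 and cargo receptors in 22 of 22 (2.35), genes for GPI synthesis in 14 of 14 (2.31) and large transporters, pumps and channels in 28 of 30 (2.49). ITPR1, an IP3-gated calcium channel of the ER whose first segment was found at residue 889, was not called (-0.06 ± 0.21), but was higher at 0.63 with counts over whole exons. Names that begin like solute carriers were higher in 68 of 71 genes (2.52), and the others, SLC4A1AP (-0.66 ± 0.15), SLC2A4RG (-0.22 ± 0.17) and SLC7A6OS (-0.02, named after its value was seen), are not carriers themselves. Peroxisomal membrane proteins were higher in 7 of 8 genes with a lower median of 1.46, led by PEX14 (2.00 ± 0.19) and PEX3 (1.75 ± 0.15), with FAR1 lower (-0.43 ± 0.16, adjusted p = 0.0373). FAR1 was not called without ER replicate 2 (-0.30) or without cytosol replicate 2 (-0.19).

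Enzyme complexes built from both kinds of subunit split along the membrane. The V-ATPase acidifies organelles and has a membrane sector and a cytosolic sector. All 7 tested membrane genes were higher (median 2.03), with ATP6AP2 at 2.72 ± 0.18, ATP6V0B at 2.67 ± 0.21, ATP6V0E1 at 2.06 ± 0.13, ATP6AP1 at 2.03 ± 0.13, ATP6V0A1 at 1.72 ± 0.13, ATP6V0E2 at 1.70 ± 0.17 and ATP6V0A2 at 1.12 ± 0.18. Of 7 cytosolic genes 2 were higher (28.6%, near the share of all genes) and 1 lower, with a median of 0.24 that was -0.38 with library totals. ATP6V1B2, the nucleotide-binding B subunit, was at -0.59 and -0.51 in the ER lysates and 0.12 and 0.05 in the cytosolic ones (-0.64 ± 0.16, adjusted p = 0.00490), and was not called without ER replicate 1 (-0.59). ATP6V1G1 was higher by 0.85 ± 0.20, but at -1.70 and -1.70 against -2.75 and -2.32 it was depleted in all lysates and was not called with library totals (0.23) or counts over whole exons (0.27). ATP6V1F was higher by 0.67 ± 0.15 and not called with library totals (0.05). The remaining 4, ATP6V1C1 (-0.21), ATP6V1E1 (-0.20), ATP6V1H (0.24) and ATP6V1D (0.35), were not called, though ATP6V1E1 was lower without cytosol replicate 1 (-0.50).

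Sterol synthesis divided in the same way. Of 10 tested membrane enzymes 9 were higher (median 2.40), among them SQLE (2.82), DHCR7 (2.71), SC5D (2.61), MSMO1 (2.59), SOAT1 (2.57), LBR (1.79) and NSDHL (1.09). LSS, the cyclase, which sits on the membrane without a segment of 19 residues, was not called (-0.26 ± 0.14, adjusted p = 0.133). Of the 7 soluble enzymes FDPS was higher (0.56 ± 0.16, or -0.06 with library totals) and HMGCS1, the cytosolic HMG-CoA synthase, was lower (-0.40 ± 0.14), while MVK (0.38), PMVK (0.28, or -0.34 with library totals), IDI1 (0.00), MVD (-0.10) and ACAT2 (-0.13) were not called. The median of the soluble list was 0.00, or -0.62 with library totals. FDPS was not called without ER replicate 1 (0.53) or 2 (0.59), HMGCS1 not without ER replicate 1 (-0.32), ER replicate 2 (-0.48) or cytosol replicate 2 (-0.24), and MVK was called without cytosol replicate 2 (0.48).

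Tail-anchored proteins showed little difference. The list holds 18 tested genes, SNAREs and the tail-anchored ER tethers VAPA and VAPB, with a median of 0.18, which was -0.45 with library totals and -0.02 without cytosol replicate 1. VAMP7 was the 1 gene called higher and VAPA the 1 called lower, with -0.34 and -0.13 in the ER lysates against 0.16 and 0.53 in the cytosolic ones (-0.58 ± 0.14, adjusted p = 0.00427), and it was not called without ER replicate 1 (-0.47). VAPB was at -0.38 ± 0.15 (adjusted p = 0.0506) and was called without cytosol replicate 1 (-0.42). SEC61B is itself tail-anchored and is the bait. It gave 1.14 and 1.49 against -0.25 and -0.14 (1.52 ± 0.19, adjusted p = 7.66e-06), at 48.5 and 54.3 CPM (counts scaled to a common library total) in the ER total inputs and 50.9 and 30.1 in the cytosolic ones. Footprints of the bait and of the endogenous gene share this coding sequence and cannot be told apart. RPL29, the tagged protein, was at 0.83 ± 0.14, and was not called with library totals (0.21). Nuclear envelope membrane proteins were higher in 11 of 14 genes (median 2.16), from EMD (0.68 ± 0.19) up to the pore protein NUP210 (3.04). TMPO (-0.79 ± 0.13) and SYNE1 (-0.77 ± 0.18), each with its only segment at the tail, were lower, and SYNE2 (-0.76 ± 0.33) was not called.

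Genes that act on membranes from the cytosol, or nowhere near them, were mostly at or below the typical gene. Vesicle coats and tethers had a median of -0.22, with 6 of 32 higher. Of the 32, 12 were lower (37.5%, against 21.7% of all genes), led by clathrin heavy chain (CLTC, -1.02 ± 0.12). The same list holds the COPII GTPases SAR1A and SAR1B, which start coat assembly at ER exit sites through an amphipathic helix. SAR1B gave 1.91 and 2.07 in the ER lysates and -0.56 and -0.03 in the cytosolic ones (2.30 ± 0.17, adjusted p = 2.75e-08), and SAR1A was higher by 1.96 ± 0.13. Of 23 RAB GTPases 6 were higher (26.1%, against 28.3% of all genes) and none lower (median 0.07, or -0.55 with library totals), with RAB10 at 1.14 ± 0.16 and RAB4A at 0.81 ± 0.14, the latter not called with library totals (0.19). Soluble nucleoporins had 7 of 20 genes lower (35%, against 21.7% of all genes) and 1 higher (median -0.20). The higher gene was NUP155, a scaffold protein of the pore, at 1.54 and 1.5 against -0.16 and -0.19 (1.70 ± 0.12, adjusted p = 1.52e-08).

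Among lists of mostly cytosolic machines the chaperonin and HSP list was lowest, at a median of -0.34. It had 8 of 16 lower (50%, against 21.7% of all genes) and 1 higher (HSP90AA1, 0.55 ± 0.13, or -0.07 with library totals). The list also holds the mitochondrial chaperone HSPD1, which was not called (-0.16 ± 0.39). The lowest members of the list were HSPA4 (-0.72) and HSPA8 (-0.67). Cytoskeletal genes had a median of -0.02, with 7 of 24 lower (29.2%, against 21.7% of all genes), SPTAN1 (-1.24) and the myosin MYH9 (-0.96) first. Another 2 were higher, among them FLNA (0.73 ± 0.14, not called with library totals at 0.11, or -0.29 with counts over whole exons). Cytosolic aminoacyl-tRNA synthetases had a median of 0.00, with 7 of 18 lower (38.9%, against 21.7% of all genes), led by LARS1 (-0.93) and VARS1 (-0.81). TARS1 stood at 1.82 ± 0.37 but was depleted in all lysates, at -1.55 and -1.18 against -2.46 and -4.21, and with counts over whole exons it was -0.42. The glycolysis list (median -0.09) had 4 of 12 higher (33.3%) and 2 lower, GAPDH (-0.55, or -0.02 and not called with counts over whole exons) and PKM (-0.49), and the proteasome list (0.05, or -0.57 with library totals) had 9 of 35 higher (25.7%) and 1 lower, PSMD11 (-0.41), which was not called without ER replicate 1 (-0.31). Ribosomal proteins ran higher, with 35 of 67 higher (52.2%, against 28.3% of all genes), 2 lower and a median of 0.40 that was -0.21 with library totals. They ranged from RPL3 (-0.66 ± 0.13) to RPL41 (1.5 ± 0.15), which at 25 residues is the shortest.

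**Figure D4:**
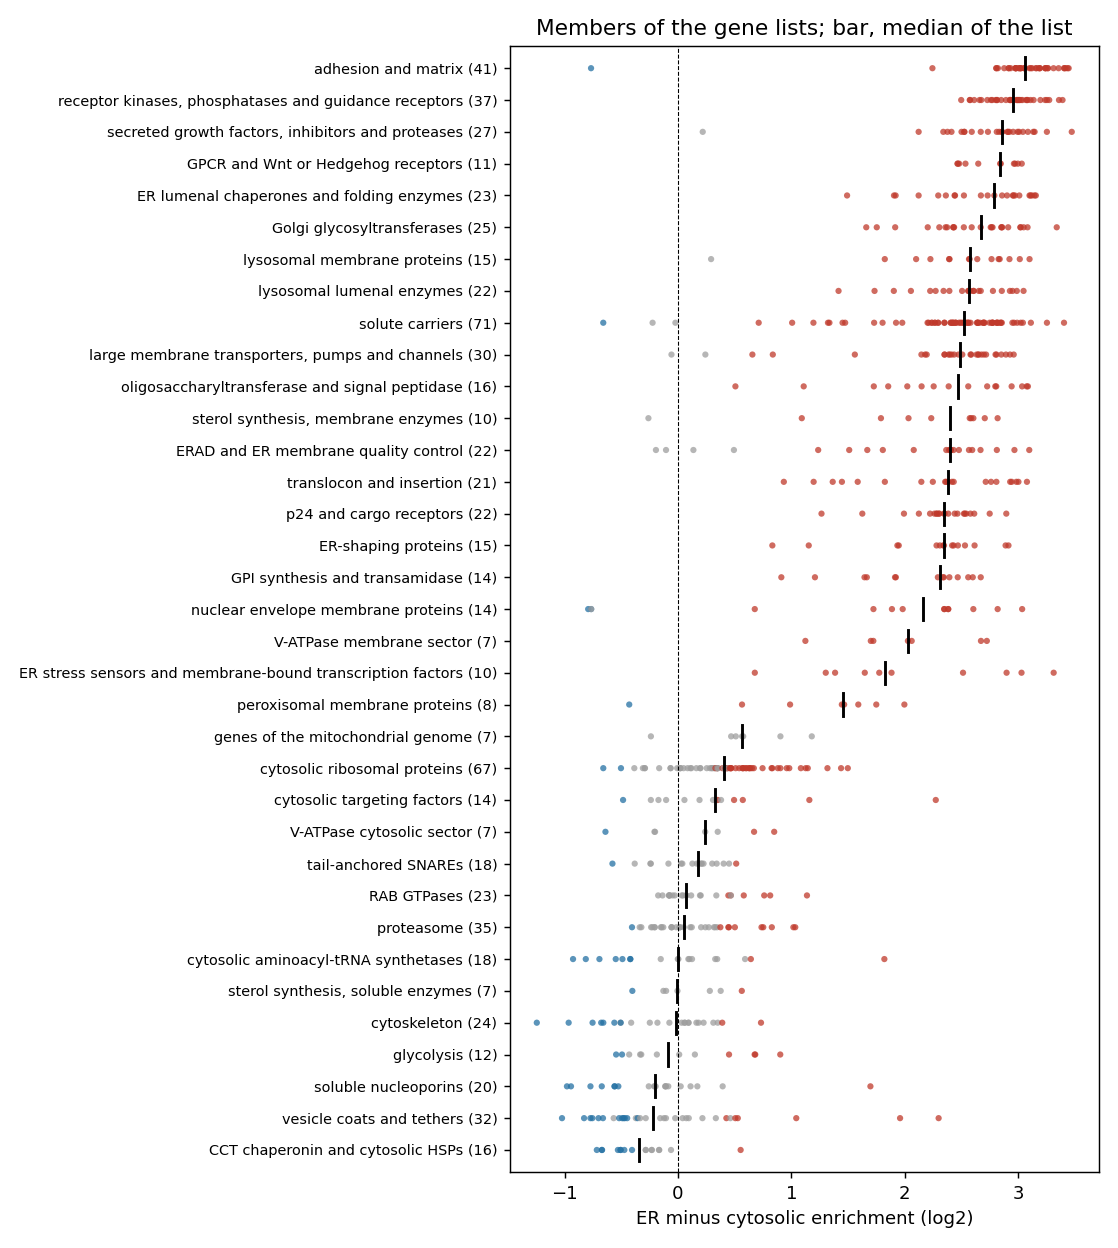
ER minus cytosol difference (log2) of each tested gene, 1 line for each list of at least 5 tested genes, with the number tested in brackets and the list median as a bar. Red points are called higher, blue points lower and grey points neither; the lists of ER, secreted and membrane proteins have medians above 1 except the tail-anchored SNAREs (0.18), and those of cytosolic machines lie within 0.6 of 0.

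Length went with the difference among genes that have no hydrophobic stretch. The median was 0.31 for 568 genes of 200 or fewer residues, -0.08 for 1092 genes of up to 400, -0.29 for 1492 of up to 800, -0.50 for 791 of up to 1600 and -0.68 for 197 longer ones, each bin starting where the last ends. With library totals the first of these is -0.31. Calls moved with it, from 224 higher and 9 lower in the shortest group to 5 higher and 135 lower in the longest. In the longest group the medians were -0.72 and -0.62 in the ER lysates and -0.04 and 0.14 in the cytosolic ones, so the ER lysates lay further from 0. In the shortest they were 0.16 and 0.13 against -0.14 and -0.04. The largest falls of all genes belong to long cytosolic and nuclear proteins: MAP1B, a microtubule-associated protein, gave -1.67 and -1.29 against 0.01 and 0.07 (-1.52 ± 0.15, adjusted p = 7.49e-07), followed by the kinetochore protein KNL1 (-1.44), PRRC2C (-1.43), BOD1L1 (-1.43), IRS2 (-1.42), KMT2C (-1.38), AHDC1 (-1.34), HCFC1 (-1.29), MAP1A (-1.29) and FOXK1 (-1.28). FOXK1, with 733 residues, is the shortest of them.

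**Figure D5:**
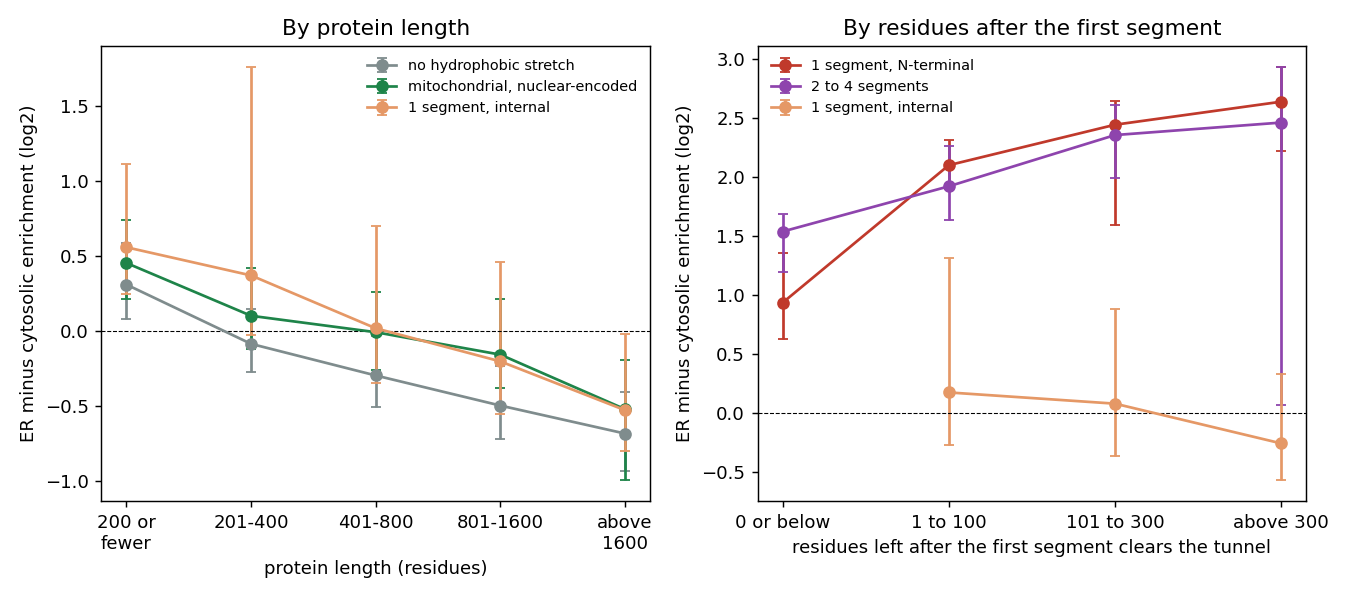
Median ER minus cytosol difference (log2) with quartiles as bars, on the left by protein length for genes without a stretch, nuclear-encoded mitochondrial genes and genes with 1 internal segment, on the right by the residues left after the first segment clears the tunnel. Medians decline with length from 0.31 to -0.68 without a stretch, and increase with residues after the segment from 0.93 to 2.63 in the N-terminal class.

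Nuclear-encoded mitochondrial genes, taken from the identifiers on the study's lists, numbered 687 with a median of 0.16, which was -0.46 with library totals. Of these 212 were higher (30.9%, near the 28.3% of all genes) and 46 lower (6.7%, against 21.7%). Their medians declined with length in the same order, from 0.45 at 200 or fewer residues to -0.52 above 1600, the last over 5 genes. The largest rises were STOM (2.8 ± 0.19), SFXN4 (2.76 ± 0.17), PRDX4 (2.68), FKBP10 (2.67) and TIMM23 (2.67 ± 0.25). PRDX4 and FKBP10 are ER lumenal enzymes and STOM is a plasma membrane protein, so the study's identifiers take in proteins known from other organelles. TIMM23, the channel of the inner membrane import machinery, gave 1.56 and 1.68 in the ER lysates and -0.82 and -1.49 in the cytosolic ones, and SFXN4 gave 1.71 and 1.9 against -0.82 and -1.14, so both pulldowns entered the difference. The lowest were FASN (-1.04), the cytosolic fatty acid synthase, POLQ (-0.99) and TARS2 (-0.94 ± 0.21), the last not called with counts over whole exons (-0.15).

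Several exceptions to the sequence classes remained. Of the 4140 genes without a stretch the largest rises included LAMA4 (3.44 ± 0.24), H2AC13 (3.03 ± 0.24), COL6A1 (3.0) and GRN (2.71). LAMA4, COL6A1 and GRN encode secreted or lysosomal proteins, in which no stretch reached the thresholds used here. The 5 lowest genes with several segments were YTHDC2 (-1.18), POGZ (-1.10), ANKRD17 (-0.98), NUP214 (-0.98) and MDN1 (-0.88), which are cytosolic or nuclear proteins whose windows passed the hydropathy threshold. At a mean of 2.0 instead of 1.6 the median difference of genes with a window, relative to all genes, was 2.5 in place of 1.98, and the N-terminal class exceeded the tail class by 0.53 in place of 2.06.

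The cells carried HEK293 markers. Of these VIM (1257 to 3067 CPM in the 4 total inputs), NEFL, NEFM and CDH2 were all tested, and CDH2, N-cadherin, was higher (3.24 ± 0.17) while the intermediate filament genes VIM (-0.75), NEFL (-0.49) and NEFM (-0.44) were lower. NEFL was not called without ER replicate 2 (-0.40) or cytosol replicate 1 (-0.31), and NEFM not without ER replicate 1 (-0.45) or 2 (-0.43). None of the markers of other cell types had more than 1 count in a total input or more than 2 in a pulldown. Total inputs of the 4 lysates held 4485509 to 15820989 estimated counts in coding sequences and pulldowns 10912039 to 19539527. The median SE was 0.23 in the lowest of 5 bins of the smallest total input count and 0.13 in the highest, and the share called was 39.6% and 65.5%. Sample labels do not give the sequencing run, so the raw-data folder named in each deposited header was taken as the run. By this grouping no run held both a complete ER lysate and a complete cytosolic lysate, so location and run cannot be fully told apart. In cytosol replicate 1 alone the pulldown and total input came from different runs, and without it 1961 genes were higher and 1758 lower, with a median of 2.57 in the N-terminal class.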

How the data were processed

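Ribosome footprints of HEK293T cells were analysed from 8 libraries, a total input and a pulldown from each of 2 ER and 2 cytosol lysates, and the 4 libraries of the outer mitochondrial membrane (OMM) entered the fit to share its estimate of spread. The authors removed rRNA and tRNA reads with Bowtie, used TopHat for alignment to GRCh38 and retained reads with a unique position, spread footprints of 27 to 36 nt over their central positions after ignoring 13 nt at each end, and deposited estimated counts per region of each Ensembl 104 gene. The deposited RPKM, scaled by the reads that fall on any annotated transcript, served for 1 alternative scale only. Entries naming several genes (1079, of which 452 reached the minimum) counted towards library size, 5.86% to 6.39% of it in the 8 libraries, and were not tested. RNA-seq files and comparisons made by the authors were not used.

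Counts in coding sequences were rounded and fitted with edgeR 4.0.16 (quasi-likelihood, TMM) in R 4.3.3, with a term for each of the 6 lysates and, separately by location, a pulldown effect relative to input. The contrast was the ER effect minus the cytosol effect, two-sided, with Benjamini-Hochberg adjustment over all 6809 genes. Every adjusted p is from this test, errors are SE, and a call needs an adjusted p below 0.05. With 2 lysates a group, the spread behind the p-values was estimated jointly from the ER, cytosol and OMM lysates and moderated across genes. The p-values therefore do not measure the spread of the ER and cytosol lysates alone. Enrichment per lysate used 0.5 added counts and the same scale. The pairing of pulldown with total input comes from the study, which takes both from 1 lysate, and the deviations of replicates 1 and 2 correlated across genes between pulldown and total input (r = 0.752 at the ER, 0.871 in the cytosol, 0.570 at the OMM). The fit was tested on simulated data.

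Proteins, coordinates and coding sequences are those of the Ensembl canonical transcript in GENCODE 44 on GRCh38, matched by identifier for 6807 of 6809 genes. Kyte-Doolittle means over 19 residues (at least 1.6) defined segments, over 10 residues (at least 2.0, starting at residues 2 to 30) short N-terminal cores. Mitochondrial genes are the identifiers on the study's lists. Genes are named if among the 10 largest rises or falls with the same sign in all 4 pairings of ER and cytosol lysates, the 5 largest rises without a stretch, the 5 lowest with several segments, the 5 largest mitochondrial rises and 3 largest falls, the 2 highest and 2 lowest of each list, or any member of the V-ATPase, sterol, ER stress, oligosaccharyltransferase, marker and bait lists. Some results that this rule names are not reported here. Members and lists were chosen with earlier results of these data known. Figures used Python 3.11.15 and matplotlib 3.10.9.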

Additional observations from a re-analysis of the deposited data

Results flagged for a closer look

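The results below are genes whose effect of pulldown differed between ER and cytosol in a direction that their sequence class or list did not share, by the test of the difference itself.

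LAMA4 (3.44 ± 0.24), H2AC13 (3.03 ± 0.24), COL6A1 (3.0 ± 0.18) and GRN (2.71 ± 0.19) were higher at the ER. None has a 19-residue segment or a short N-terminal core, and each had an adjusted p of 5.22e-08 or smaller. They were picked as large rises among genes already called, with each ER lysate above each cytosolic lysate. Neither the small adjusted p nor that order of lysates is therefore separate evidence for them. H2AC13 is a replication-dependent histone gene, and its enrichment was 2.51 and 2.37 in the ER lysates against -1.10 and -0.07 in the cytosolic ones. Histone genes have near-identical copies, the authors counted only reads with a unique position, and its value is therefore uncertain.

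Within lists whose other members were mostly higher, SLC4A1AP (-0.66 ± 0.15), COL1A1 (-0.77 ± 0.16), TMPO (-0.79 ± 0.13), SYNE1 (-0.77 ± 0.18) and FAR1 (-0.43 ± 0.16) were lower. SLC4A1AP is not a carrier and entered its list by name. Both TMPO and SYNE1 have their only segment at the tail, a class in which 66 of 134 genes were higher and 19 lower. The smallest total input held 334 counts of COL1A1 and 844 of FAR1, and FAR1 was not called without ER replicate 2 (-0.30) or cytosol replicate 2 (-0.19).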

How the results depend on the processing

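With library totals and with the mapped reads behind the RPKM as the scale, lower calls numbered 4290 and 4071 instead of 1480, and all 1337 and 1355 higher calls were among the 1927, with 6 higher calls turned lower under library totals. A minimum count 4 times as high left 3423 genes, 1019 higher and 913 lower, and an absolute log2 difference above 1 left 89 lower. Without the replicate block, which drops the pairing of pulldown and total input by lysate, 1224 were higher, 52 lower and 111 of the 182 called named genes were called. Leaving out 1 lysate gave 1616 to 1972 higher, 736 to 1758 lower and 170 to 185 named genes called. DESeq2 called 1703 higher and 1113 lower, all among the main calls. A fit of the 8 ER and cytosol libraries alone called 1880 higher and 1413 lower. In it FAR1 (-0.43), HMGCS1 (-0.40) and H2AC20 (0.43) were not called.

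Genes with a window lay 1.98 above all genes (1.9 to 2.08 without 1 lysate), 1.81 at the higher minimum, 2.16 with exon counts and 2.5 at a hydropathy of 2.0. N-terminal minus tail was 2.06 (1.93 to 2.13), and 2.55, 2.25 and 0.53 under the same alternatives. Directions turned with library totals for FDPS (-0.056), H2AC20 (-0.19), HSP90AA1 (-0.066), OST4 (-0.11), PMVK (-0.34) and VAMP7 (-0.11), with mapped reads for FDPS (-0.00483), H2AC20 (-0.14), HSP90AA1 (-0.017), OST4 (-0.0603) and VAMP7 (-0.053), and with exon counts for FLNA (-0.29), ITPR1 (0.63), SRP68 (-0.38) and TARS1 (-0.42). The cause was not tested. With 2 lysates a group and residual degrees of freedom of 3, small differences in the lowest of 5 depth bins (median SE 0.23) were not resolved.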

Other observations

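Some families moved together that no list covers. They were chosen after their values were seen and none was tested as a group. All 12 tested histone H2A genes of the replication-dependent clusters were higher at the ER, with a median of 1.56 and a range from 0.43 (H2AC20) to 3.03 (H2AC13). H2AC20 was -0.19 with library totals and was not called without ER replicate 1 (0.38), ER replicate 2 (0.49) or cytosol replicate 1 (0.18). Their median enrichment was 1.23 and 1.41 in the ER lysates and -0.52 and -0.03 in the cytosolic lysates, and the median difference was 1.45 without cytosol replicate 1 and 0.94 with library totals. The partner histones had smaller values. H2B had 4 of 10 genes higher (40%, against 28.3% of all genes) and a median of 0.61. H4 had 6 of 7 (85.7%) and 0.43, and H3 3 of 6 (50%) and 0.31. H1 had none of 5 higher, 1 lower and a median of -0.05. With library totals the medians of H2B, H4 and H3 were -0.01, -0.19 and -0.31. The median enrichment of the H2B genes was below 0 in all pulldowns, at -0.84 and -0.69 at the ER and -1.02 and -1.45 in the cytosol. The copies of each histone share most of their sequence, so these are not independent genes, and the differences between histones were not tested.

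The ARF and ARL small GTPases and the Src-family kinases also stood high. Many members of these families, though not all, attach to membranes by a lipid or an amphipathic helix at the N terminus. Of 15 tested ARF and ARL genes 10 were higher (66.7%, against 28.3% of all genes) and none lower, with a median of 1.21. Among the highest were ARL10 (2.40), ARL1 (2.18), ARF5 (1.8) and ARF1 (1.54 ± 0.12), while ARF6 (-0.28) and ARL6 (-0.33) were not called. ARL16 was called higher (0.75 ± 0.29) but was below 0 in all lysates, at -0.23 and -0.89 at the ER against -1.29 and -1.24 in the cytosol. All 4 tested Src-family kinases were higher, LYN (1.53 ± 0.17), YES1 (1.44 ± 0.20), FYN (1.02 ± 0.17) and SRC (0.87 ± 0.19), though SRC was not called with library totals (0.25). With library totals the medians of the families were 0.59 and 0.61.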
